A study of Mus musculus with 12 samples.

Results

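The comparison was between resident peritoneal macrophages of C57BL/6 mice kept in DMEM buffered with MOPS and the same kind of cells kept in DMEM buffered with HEPES, with no further stimulus. It comprised 6 of the 12 RNA-seq libraries of the series: MOPS libraries 1, 2 and 3 and HEPES libraries 4, 5 and 6. Both groups were cultured for 24 h, and the remaining 6 libraries came from the same media with lipopolysaccharide (LPS, a bacterial cell-wall component) at 10 ng/ml for 2 h. The study's design text lists pH 6.8 and 7.4 and then MOPS and HEPES, so by word order MOPS was the acidic medium at pH 6.8 and HEPES the neutral one at pH 7.4. Buffer and pH changed together, and their parts cannot be told apart. The series is titled as a study of extracellular acidity, macrophage metabolism and innate responsiveness, and the comparison asks how the resting transcriptome differs between these media. The labels give neither age nor sex of the mice, nor how the macrophages were separated from other peritoneal cells. Whether the replicates came from different mice or different dishes is not stated, so each p-value refers to variation among these libraries, which may be technical. RNA came from whole cultures, in which fewer cells of a type and less RNA per cell cannot be told apart.

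Library totals ran from 20114613 to 24734853 counts in MOPS and from 22433773 to 24669239 in HEPES, and each library had counts for 19957 to 20548 genes. Of 54532 genes in the deposited table, 14506 passed a filter on low counts that used all 12 libraries, with and without LPS. Values are given as CPM (read counts scaled to a common library total and corrected for library composition), which serve for comparing 1 gene between libraries, not for comparing genes with each other. Changes are log2 fold changes of MOPS over HEPES with their standard error (SE), and a gene was called when the adjusted p of edgeR's quasi-likelihood test was under 0.05. Libraries of the same medium correlated at 0.997 to 0.998 and libraries of different media at 0.982 to 0.983 in log expression. The first principal component carried 82.2% of the variance and held the MOPS libraries at one end and the HEPES libraries at the other. The second carried 5.21%. Macrophage markers were present in both groups. Adgre1, which encodes F4/80, was at a mean of 835 CPM in MOPS and 874 in HEPES and was not called. Gata6, the transcription factor that defines peritoneal macrophages, was at 36.7 and 30.2 CPM and was called higher (log2 change 0.28). The markers did not move together. Lyz2, Cd68 and Timd4 were called lower, by 0.80, 0.33 and 1.60 on the log2 scale. Csf1r and Mertk were called higher, by 0.11 and 0.14, though these calls were lost without some single libraries.

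Extracellular acidity accompanies inflamed, ischaemic and tumour tissue, where glycolysing cells export lactate and protons. Cells sense protons through G protein-coupled receptors and ion channels, and export them through sodium-proton exchangers, monocarboxylate carriers and bicarbonate transport. Resident macrophages of the peritoneal cavity clear apoptotic cells, store and burn lipid, recycle heme iron and hold a lysosomal system for degradation. Several transcription factor families set these programmes: PPARs respond to fatty acids, SREBP2 to low sterol, LXRs to oxysterols, and NRF2 to electrophiles and oxidants.

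The medium was associated with many small and few large differences. With 3518 genes higher and 3687 lower, 24.3% and 25.4% of the genes tested were called in each direction, or 49.7% in either. These shares over all tested genes are the background for the counts of called genes given here and are not matched for level. The median change over all tested genes was -0.01. Among the higher genes the median fold was 1.27, and 1268 had less than 1.2-fold. Among the lower genes the median fold was 1.38, and 885 had less than 1.2-fold. A change of at least 2-fold was seen in 487 higher genes (3.36% of those tested) and in 690 lower genes (4.76%). At least 4-fold was reached by 88 higher and 154 lower genes. The 3 values of 1 medium lay wholly above those of the other in 57.6% of tested genes, including 3396 of the higher and 3546 of the lower calls. In the authors' deposited table, 3217 of the tested genes were significantly higher and 2997 significantly lower, and 6134 calls had the same direction there as here, with 0 in the opposite one. Called genes were more frequent among abundant genes. In the quintile of genes with the lowest level (0.154 to 1.29 CPM) 22.7% were called, and in the highest quintile (70.7 to 17927 CPM) 72.5%. In that highest quintile 1190 of 2901 genes rose and 914 fell, so the background for lists of abundant genes is higher than the shares over all genes. The share with at least 2-fold ran the other way, from 17.2% in the lowest quintile to 4.03% in the highest. By gene class, 3268 of 12140 protein-coding genes were higher and 3374 lower, against 40 and 78 of 384 lincRNA genes.

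**Figure D1:**
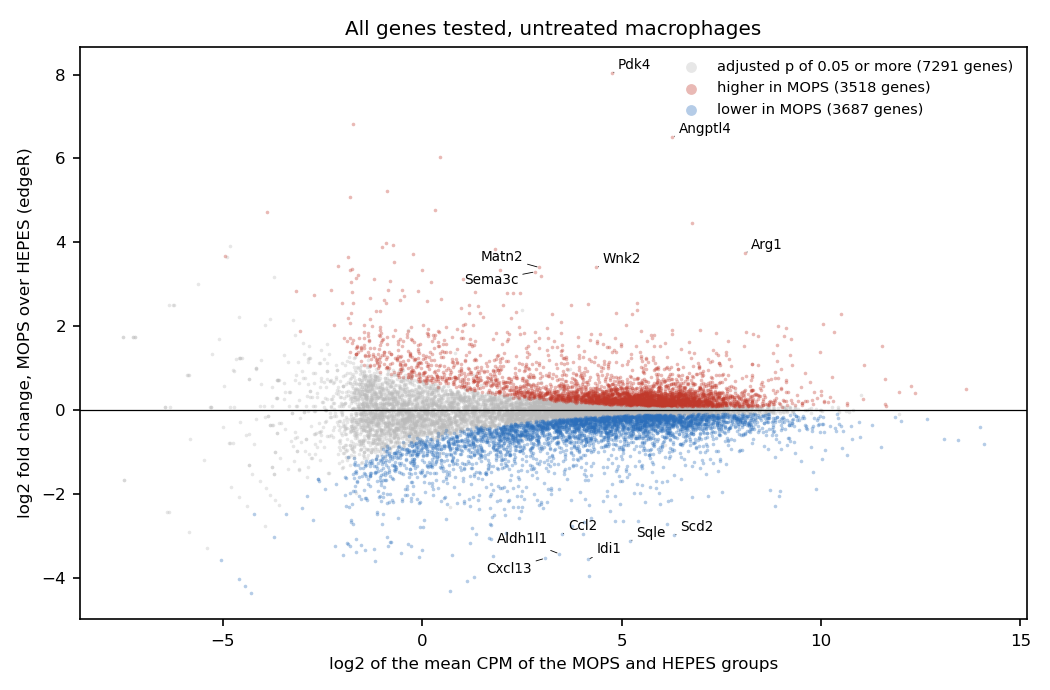
Each point is 1 of the 14496 tested genes with a count in either untreated group; the x axis is log2 of the mean CPM of both groups and the y axis the log2 fold change of MOPS over HEPES. The 3518 higher genes (red) and 3687 lower genes (blue) are about equally many, and Pdk4, Angptl4 and Arg1 stand far above 0 among genes past 10 CPM.

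Among protein-coding genes with at least 10 CPM in the higher group, the largest rise was in Pdk4 on chr6:5483351-5496309 (mm10, minus strand). Pdk4 encodes the kinase that switches off pyruvate dehydrogenase when fatty acids are burned. Its level was 53.1, 54.2 and 53.8 CPM in the MOPS libraries and 0.202, 0.210 and 0.184 CPM in the HEPES libraries, a log2 change of 8.04 ± 0.14 (SE) or 263-fold. The HEPES values stand near the limit of detection and the MOPS values do not approach them. Angptl4, a secreted inhibitor of lipoprotein lipase on chr17:33773750-33781575, was at 156, 148 and 154 CPM against 1.75, 1.85 and 1.36 CPM (log2 change 6.52 ± 0.085). Both genes are textbook targets of the fatty acid receptors PPARalpha and PPARdelta.

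Arg1, the arginase that turns arginine into ornithine and urea, was at 561, 501 and 465 CPM in MOPS and 37.9, 42.7 and 32.5 CPM in HEPES (log2 change 3.75 ± 0.14). Wnk2 on chr13:49036303-49148014, a member of the WNK kinases that control chloride and cation transport, was at 33.5, 38.1 and 41.5 CPM against 3.37, 3.91 and 3.39 CPM (log2 change 3.40 ± 0.098). In both genes the lowest MOPS library lay several-fold above the highest HEPES library.

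The other leading rises spanned unrelated functions. Matn2, an extracellular matrix adaptor, rose by 3.40 ± 0.15 on the log2 scale, Sema3c, a secreted semaphorin, by 3.30 ± 0.14, and Lgals4, a galectin, by 3.20 ± 0.15. Procr, the endothelial protein C receptor, was at 68.8, 71.0 and 72.7 CPM in MOPS and 11.8, 13.1 and 11 CPM in HEPES, a 5.92-fold difference. Akr1b8, an aldo-keto reductase that detoxifies lipid aldehydes, rose by 2.53, and Asb4, a substrate adaptor of ubiquitin ligases, by 2.50. Hilpda, a lipid-droplet protein that inhibits triglyceride lipolysis, rose by 2.39, Rims3, a presynaptic scaffold protein, by 2.33, and Clcf1, a cytokine of the interleukin-6 family, by 2.29. Slc40a1, which encodes ferroportin, the cellular iron exporter, was at 62.5, 64.9 and 62.9 CPM against 13.4, 12.5 and 12.7 CPM, a 4.93-fold difference.

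On the falling side, 6 of the leading genes described here belong to sterol synthesis and supply, described with their pathway below. Aldh1l1 on chr6:90486427-90600203, the cytosolic enzyme that oxidises 10-formyltetrahydrofolate, was at 1.86, 1.60 and 2.08 CPM in MOPS and 19.5, 19.6 and 19.9 CPM in HEPES (log2 change -3.42 ± 0.13). Scd2, a stearoyl-CoA desaturase on chr19:44293676-44306864, was at 16.4, 18 and 19.0 CPM against 124, 151 and 147 CPM (log2 change -2.98 ± 0.12). Scd2 makes the monounsaturated fatty acids that enter membrane lipids and cholesteryl esters.

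The rest of the leading falls were in chemokines and leukocyte surface receptors. Cxcl13, the B cell chemokine of serous cavities, was at 1.34, 1.30 and 1.34 CPM against 14.3, 17.1 and 14.8 CPM. Ccl2, the monocyte chemokine, was at 3.16, 2.46 and 2.04 CPM against 17.7, 21.3 and 20.8 CPM. Cd28, known as the T cell co-stimulatory receptor, was at 3.12, 3.43 and 3.83 CPM against 24.1, 22.3 and 24.4 CPM. In these 3 genes every HEPES library was several-fold above every MOPS library. Adgre4, an adhesion receptor of the F4/80 family, fell by 2.63 ± 0.13 on the log2 scale, and Cd300lf, a lipid-binding receptor of the CD300 family, by 2.57 ± 0.097. Pira2, a paired immunoglobulin-like receptor, fell by 2.67 ± 0.10, and because it has near-identical neighbours its counts may hold or lack reads of those copies.

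**Figure D2:**
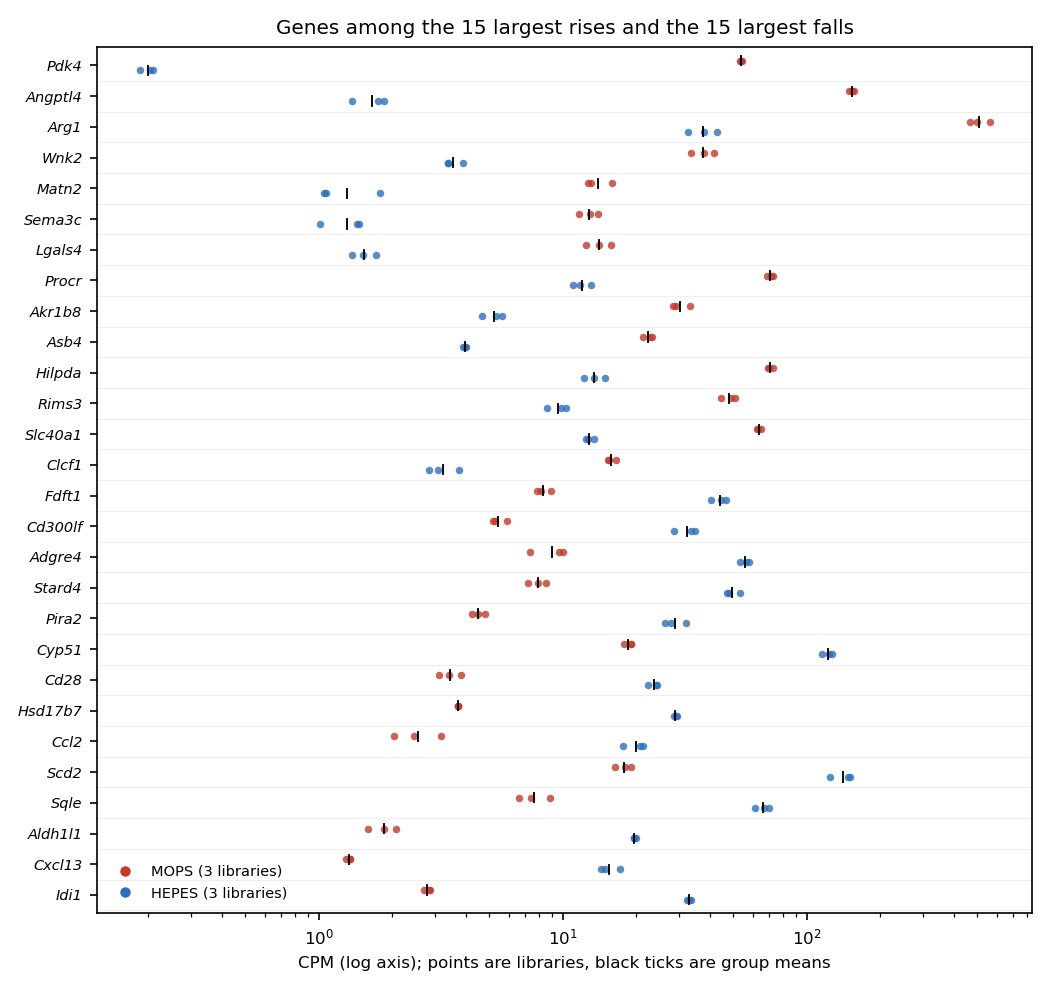
CPM of 28 protein-coding genes among the 15 largest rises and the 15 largest falls, on a log axis; points are the 3 libraries of each medium and black ticks their means. Only genes whose libraries did not overlap between media were eligible, so the red (MOPS) and blue (HEPES) points are separate by that choice. The nearest points are 53.1 against 0.210 CPM in Pdk4 and 8.98 against 40.5 CPM in Fdft1.

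By absolute difference in CPM, other genes led. Cd36, the scavenger receptor that takes up long-chain fatty acids and oxidised lipoproteins, was at 4400, 4373 and 4437 CPM in MOPS and 1520, 1485 and 1557 CPM in HEPES (log2 change 1.53 ± 0.11). Ucp2, an uncoupling protein of the inner mitochondrial membrane, was at 2057, 2023 and 2008 CPM against 559, 560 and 543 CPM (log2 change 1.87 ± 0.037). Hmox1, the heme oxygenase that opens the heme ring, was at 2449, 2502 and 2320 CPM against 480, 513 and 496 CPM. These 3 abundant transcripts were each separated by at least 2-fold in every pair of libraries. Fth1 and Ftl1, the ferritin chains that store iron, rose by 0.51 ± 0.036 and 0.41 ± 0.041 on the log2 scale. Both have processed copies in the genome, so their values are uncertain. Thbs1 (thrombospondin 1), Fn1 (fibronectin) and Prdx1 (a peroxiredoxin) were also among the 10 largest rises in CPM, at log2 changes of 0.57, 0.44 and 0.75.

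The 10 largest losses in CPM were in genes of several kinds. Lyz2, which encodes lysozyme M, was at 12499, 12686 and 12584 CPM against 21616, 22759 and 21526 CPM (log2 change -0.80 ± 0.045). Apoe, the lipid-carrier apolipoprotein, was at 8735, 8650 and 7903 CPM against 13953, 13762 and 13894 CPM (log2 change -0.72 ± 0.043). Saa3, an acute-phase apolipoprotein made by macrophages, was at 381, 415 and 411 CPM against 1370, 1753 and 1331 CPM (log2 change -1.88 ± 0.17). In each of these the media did not overlap, as was so for 3546 of all 3687 lower calls. Psap (prosaposin), Ctsb and Ctsd (cathepsins B and D), Grn (progranulin), Gpnmb (a lysosomal glycoprotein) and Plek (pleckstrin) fell by 0.22 to 0.90 on the log2 scale. C4b, complement component 4, fell by 1.08 ± 0.10, and its counts cannot be separated from those of its near-copy C4a. The 10 most abundant genes held 9.96 to 10.3% of the counts in MOPS libraries and 11.9 to 12.1% in HEPES libraries.

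For a wider view, 66 lists of genes were drawn up from functional knowledge, and each is described by how many of its tested members were called and by its median change. Lists with a median whose sign depended on the scaling or on the libraries left in are given without a direction.

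**Figure D3:**
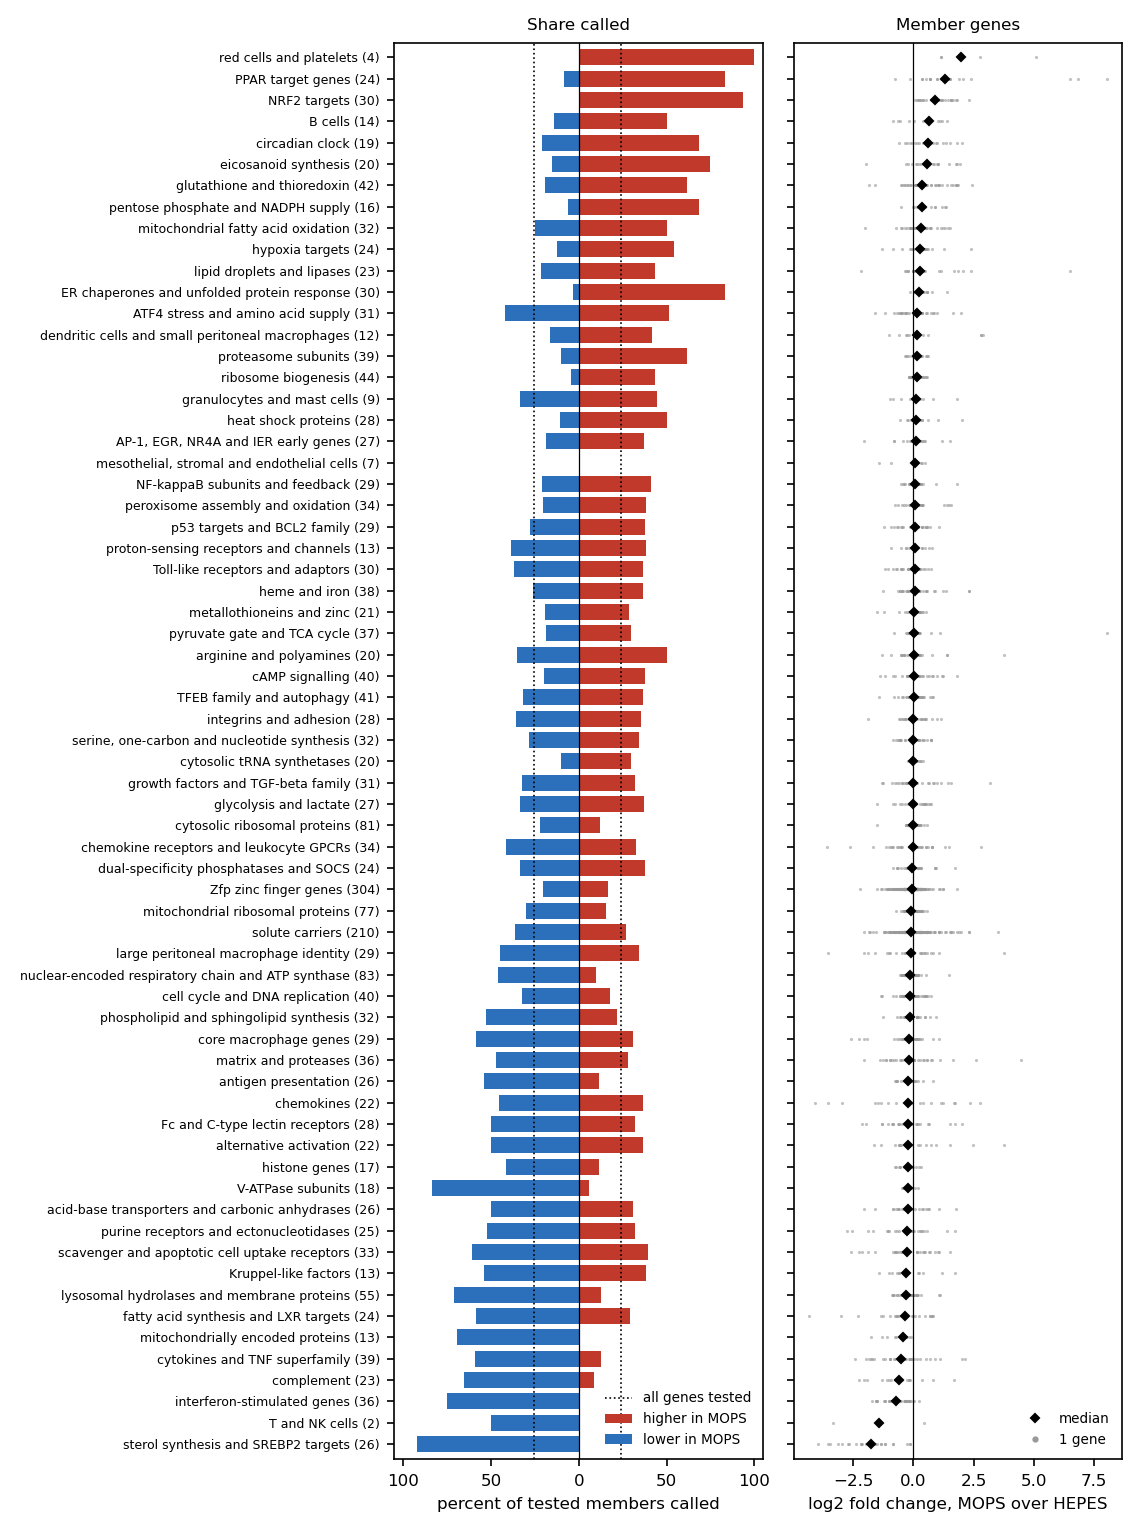
Left, for each of 66 lists (number of tested members in brackets), the percent of tested members called higher (red) and lower (blue) in MOPS, with dotted lines at 24.3% and 25.4% for all tested genes; right, the log2 fold change of each member (grey) and the list's median (black). The red cell and platelet list, with 4 tested members, has the highest median, 1.96, followed by the PPAR target list, 1.30, and the sterol list has the lowest, -1.77.

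Lipid handling. Of 28 listed PPAR target genes 24 were tested, and 20 of these rose and 2 fell, with a median log2 change of 1.30. The summed level of the list was 13803 to 14043 CPM in MOPS and 6243 to 6403 CPM in HEPES. Plin2, the coat protein of lipid droplets, was at 1748, 1706 and 1685 CPM against 417, 407 and 407 CPM. Ucp3, a relative of Ucp2, had 48 counts over the MOPS libraries and 0 over the HEPES libraries, at least 17.1-fold higher against a floor of 3 counts over the group. It overlaps another gene on the opposite strand. Over the other settings 19 to 21 rose and 1 to 2 fell. Exceptions included Fabp4, a fatty acid chaperone, which fell by 0.75 ± 0.042 on the log2 scale, and Lpl, lipoprotein lipase, which was at a mean of 2314 CPM in MOPS and 1814 in HEPES and was not called (log2 change 0.35 ± 0.14), though DESeq2 and the 6 untreated libraries alone called it. The receptors themselves did not follow one pattern. Ppard was at 83.2, 79.8 and 76.3 CPM against 60.4, 64.0 and 58.1 CPM, so that it rose by 0.39 ± 0.051. Pparg was at 5.93, 5.66 and 6.47 CPM against 19.2, 18.5 and 19.0 CPM, so that it fell by 1.65 ± 0.097. Ppara was close to detection in both media, at 0.480 ± 0.077 and 0.484 ± 0.301 CPM (SD, n = 3), and its log2 change of -0.01 was not called.

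The 32 genes of mitochondrial fatty acid oxidation were all tested, and 16 rose and 8 fell (median 0.30). Slc27a1, a fatty acid transport protein, was at 122, 117 and 118 CPM against 35.1, 33.2 and 32.6 CPM, and Cpt1a, the gatekeeper of mitochondrial import, rose by 1.32 ± 0.044 on the log2 scale. Slc25a20, the carnitine-acylcarnitine carrier, rose by 1.51, and Acadl and Acadvl, the long- and very-long-chain acyl-CoA dehydrogenases, by 1.44 and 1.16. Eci2 and Ech1, which handle unsaturated chains, rose by 1.24 and 1.46. Against this direction, Acsl3, a long-chain acyl-CoA synthetase, had the largest fall of the list, by 2.01 ± 0.12. Pccb and Acat1, of the propionate and ketone body routes, fell by 0.74 and 0.50. Peroxisomal genes were mixed, with 13 of 34 tested members higher and 7 lower (median 0.07), or 13 and 6 of 33 without Pmp22, a myelin protein that is not peroxisomal and should not have been listed. Catalase (Cat, 1.56), the fatty acid importer Abcd2 (1.38) and the proliferation factor Pex11a (1.28) had the largest log2 rises beside Ech1.

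Of 32 listed lipid-droplet and lipase genes 23 were tested, with 10 higher and 5 lower (median 0.29). Pnpla2, the adipose triglyceride lipase ATGL, was at 257, 262 and 258 CPM in MOPS and 74.7, 74.8 and 67.5 CPM in HEPES, and its inhibitor G0s2 rose by 1.69 ± 0.29 on the log2 scale. Lipa, the lysosomal acid lipase, was at 2878, 2886 and 2939 CPM against 1415, 1352 and 1394 CPM. Mgll, the monoglyceride lipase, fell by 2.17 ± 0.16. The esterifying enzymes Soat1 and Gpat4 and the neutral cholesteryl ester hydrolase Nceh1 had log2 changes of 0.04, 0.00 and 0.01 and were not called.

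Of 24 tested genes of fatty acid synthesis and LXR targets, 7 rose and 14 fell (median -0.34). Apoe, the most abundant member and an LXR target, fell, as given above. The cholesterol exporters Abca1 and Abcg1 rose by 0.50 ± 0.047 and 0.69 ± 0.055, as did Pltp (phospholipid transfer protein) by 0.78 and Mylip (a ubiquitin ligase that degrades lipoprotein receptors) by 0.78. Pltp overlaps Ctsa on the other strand. Among desaturases and elongases, Fads2 had a log2 change of -4.32 ± 0.32, and Elovl6 fell by 2.29 ± 0.24, Scd1 by 0.99, Fads1 by 0.58 and Elovl1 by 0.28. Fads2 did not meet the conditions for leading genes, non-overlapping media and at least 10 CPM in the higher group. Fasn, fatty acid synthase, fell by 1.34 ± 0.055, Srebf1, its regulator, by 0.35, and Nr1h3, which encodes LXRalpha, by 0.75. Acly and Acaca, the preceding steps, were not called, at -0.08 and 0.08, though each passed the threshold under 1 other setting. In phospholipid and sphingolipid synthesis, 7 of 32 genes rose and 17 fell (median -0.14). Pcyt2, the enzyme that activates phosphoethanolamine, fell by 1.26 ± 0.067, while Sgms1, a sphingomyelin synthase, was higher by 0.93 ± 0.039.

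Sterol synthesis. In the sterol list, 26 of 27 members were tested, 24 fell and 0 rose, with a median log2 change of -1.77 and 21 falls of at least 2-fold. At an unadjusted p under 0.05 the edgeR test gave 0 rises and 25 falls, and DESeq2 gave 0 and 24. The summed level was 606 to 610 CPM in MOPS and 1810 to 1913 CPM in HEPES. The fall covered the whole route. At the start, Hmgcs1 (HMG-CoA synthase) was at 33.5, 34.8 and 31.1 CPM against 102, 108 and 109 CPM. Mevalonate activation fell by 2.14 (Mvk), 1.33 (Pmvk) and 0.85 (Mvd) on the log2 scale. At the isoprenoid stage, Idi1 fell by 3.56 ± 0.087 and Fdps by 3.45 ± 0.29, the latter at only 0.271 against 3.06 CPM. In the squalene steps, Fdft1 fell by 2.40, Sqle by 3.12 and Lss by 2.16. Fdft1 shares a locus with the far more abundant Ctsb on the other strand, and Cyp51 with Akap9. Downstream, Cyp51 fell by 2.71, Msmo1 by 2.17, Hsd17b7 fell by 2.96, Sc5d by 1.86, Nsdhl by 1.17, Tm7sf2 by 1.34 and Dhcr7 by 0.85. Ebp, the sterol isomerase, fell least, by 0.28 ± 0.063.

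Among transport and control genes, Stard4, a sterol carrier, fell by 2.65 ± 0.078 on the log2 scale. Srebf2, which encodes SREBP2, was at 107, 111 and 107 CPM against 237, 248 and 249 CPM, and Insig1, the sterol-regulated anchor of SREBP in the ER, fell by 1.53 ± 0.045. The escort protein Scap (-0.12 ± 0.054, adjusted p = 0.0545) and the second anchor Insig2 (-0.12 ± 0.074) were not called. Scap passed the threshold under 3 of the other settings, with log2 changes from -0.19 to -0.10 over all of them. Transcription of the route is driven by SREBP2 at sterol regulatory elements. In RefSeq promoters (GRCm38.p6, 250 bases before to 50 after the start), the letters TCACNCCAC were found on either strand in 1.37% of 10158 tested genes that have a promoter there, and in 1 of the 19 sterol genes with one. That gene was Hmgcs1, whose window chr13:119690201-119690350 (plus strand, ending just before the start site) is shown with the match in capitals, because it is the member of the list that holds these letters.

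Hmgcs1: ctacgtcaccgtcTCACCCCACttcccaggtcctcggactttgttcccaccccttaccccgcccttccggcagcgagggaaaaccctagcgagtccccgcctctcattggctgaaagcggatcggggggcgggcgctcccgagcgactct

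**Figure D4:**
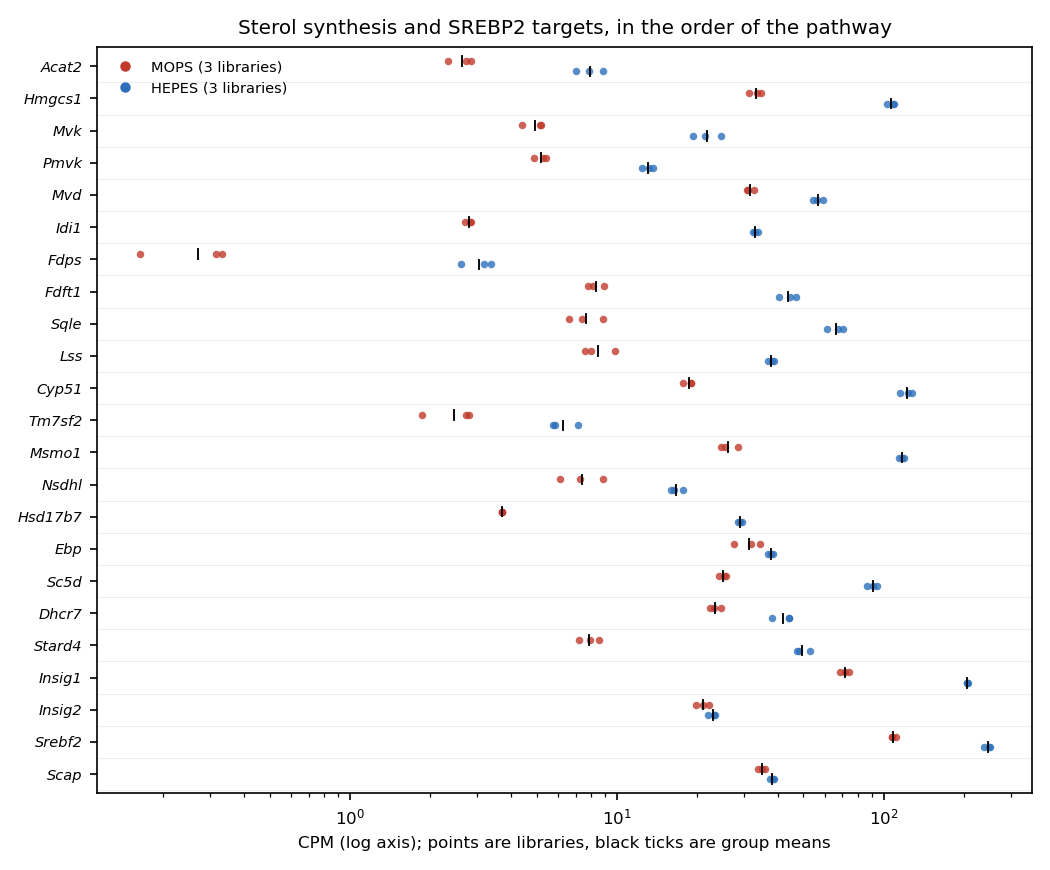
CPM (log axis) of 23 of the 26 tested genes of the sterol list in pathway order, with 3 libraries per medium and black ticks for the means. The red MOPS points lie below the blue HEPES points in the 21 genes drawn that fell, by 3.56 on the log2 scale in Idi1 and by a small margin in Ebp.

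Redox and glutathione. NRF2 is held in the cytosol by KEAP1 and, when released, drives antioxidant genes. All 30 NRF2 targets listed were tested, and 28 rose and 0 fell (median 0.89), with 14 of at least 2-fold. At an unadjusted p under 0.05 the edgeR test gave 29 rises and 0 falls, and DESeq2 gave 28 and 0. Txn1 and Cbr1 were not called, at log2 changes of 0.05 and 0.22, though Txn1 passed the threshold under 2 other settings and Cbr1 under 6. Transcripts of the regulators went the other way or moved little. Nfe2l2, which encodes NRF2, was at 224, 228 and 225 CPM in MOPS and 391, 391 and 393 CPM in HEPES (log2 change -0.79 ± 0.035), and Keap1 at 57.2, 55.9 and 52.9 CPM against 48.1, 46.6 and 47.0 CPM (log2 change 0.23 ± 0.053). Gclm, the modifier of glutamate-cysteine ligase, was at 491, 493 and 491 CPM against 145, 141 and 136 CPM. The catalytic subunit Gclc rose by 0.89 ± 0.039 and the second enzyme, Gss, by 1.38 ± 0.068, though Gss overlaps Acss2. Slc7a11, the cystine importer, was at 302, 318 and 309 CPM against 107, 102 and 90.2 CPM. Transcripts for cystine import, for both steps of glutathione synthesis and for its reductase Gsr (1.76 ± 0.037) thus all rose.

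Of 44 listed glutathione and thioredoxin genes 42 were tested, with 26 higher and 8 lower (median 0.35). Prdx6, a peroxiredoxin that also hydrolyses phospholipids, was at 436, 445 and 432 CPM against 123, 122 and 113 CPM. Srxn1 (sulfiredoxin) and Txnrd1 (thioredoxin reductase) rose by 1.17 and 1.08 on the log2 scale, and Ggt5, a gamma-glutamyl transferase, by 2.43 ± 0.26 at a low level. Against this direction, Mgst3, a microsomal glutathione transferase, was at 3.40, 5.02 and 3.66 CPM against 13.9, 14.4 and 16 CPM. Gstk1, a glutathione transferase of mitochondria and peroxisomes, fell by 1.61 ± 0.23. Gpx1 and Prdx2 fell by 0.24 and 0.28. 4 small calls were lost when single libraries were left out. These were Chac1 (-0.48; MOPS 1 or 3, HEPES 5 or 6), Txn2 (-0.14; MOPS 1, HEPES 5), Gstp1 (0.52; MOPS 1 or 2, HEPES 4 or 6) and Glrx5 (0.15; MOPS 1 or 2, HEPES 4 or 5). Chac1 and Txn2 were also lost with the length offset, Txn2 with the GC and length offset and in DESeq2, Gstp1 in the fit of the 6 untreated libraries, and Glrx5 without a filter on low counts. Over all settings their log2 changes ran from -0.66 to -0.37, -0.16 to -0.10, 0.42 to 0.66 and 0.12 to 0.19. NADPH for these reductases comes mainly from the pentose phosphate route, in which 11 of 16 genes rose and 1 fell (median 0.35). H6pd, its ER branch, rose by 1.36 ± 0.054, Taldo1 by 1.32, Me1 (malic enzyme) by 1.2 and Pgd by 0.88, and the entry enzyme G6pdx by 0.13.

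The letters TGACNNNGC, the core of the antioxidant response element bound by NRF2, were found on either strand in the promoters of 11 of 26 NRF2 targets (42.3%) and of 17.2% of all tested genes with a promoter. Among genes called higher by at least 2-fold, whatever their list, the share was 19.3%. The windows of the 3 listed genes that rose most and hold these letters are shown, with the match in capitals. They lie at chr3:122245407-122245556 (Gclm, plus strand), chr1:21240435-21240584 (Gsta3, a glutathione transferase, plus strand) and chr9:86695912-86696064 (Me1, minus strand). The match begins 134 bases before the start site in Gclm, 121 before it in Gsta3 and 6 before it in Me1.

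Gclm: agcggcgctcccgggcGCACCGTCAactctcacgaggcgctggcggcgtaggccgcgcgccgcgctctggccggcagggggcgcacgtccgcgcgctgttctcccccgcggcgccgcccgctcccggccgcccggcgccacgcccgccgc
Gsta3: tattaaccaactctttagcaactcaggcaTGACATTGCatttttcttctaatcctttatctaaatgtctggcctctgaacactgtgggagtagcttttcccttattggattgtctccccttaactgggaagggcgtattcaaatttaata
Me1: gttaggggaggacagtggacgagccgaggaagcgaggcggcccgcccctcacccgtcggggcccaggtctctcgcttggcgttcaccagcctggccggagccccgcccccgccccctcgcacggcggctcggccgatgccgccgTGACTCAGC

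Gsta3 was at 39.7, 41.3 and 41.0 CPM in MOPS and 14.6, 15.7 and 15 CPM in HEPES, and Me1 at 12.7, 12.2 and 13.1 CPM against 4.82, 5.62 and 6.12 CPM. In both the media were well apart.

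Heme and iron. Macrophages break down heme, store its iron in ferritin and export it through ferroportin. Of 39 listed heme and iron genes 38 were tested, and 14 rose and 10 fell (median 0.05). Slc48a1, which carries heme out of the phagolysosome, was at 585, 613 and 610 CPM against 310, 322 and 325 CPM. Blvrb, a biliverdin reductase, rose by 0.85 ± 0.039, while its counterpart Blvra fell by 0.20 ± 0.047. The first enzyme of heme synthesis, Alas1, was at 274, 309 and 286 CPM against 121, 129 and 125 CPM, and the mitochondrial iron importer Slc25a37 at 239, 233 and 243 CPM against 104, 90.1 and 84.4 CPM. Of later enzymes, Fech and Ppox rose by 0.22 and 0.28 and Uros fell by 0.56. Tfrc, the transferrin receptor, was at 54.4, 59.5 and 61.7 CPM against 88.8, 83.9 and 84.7 CPM. Steap3 and Slc11a2, which reduce and carry endosomal iron, fell by 0.49 and 0.43, and Hfe, the regulator of hepcidin and iron uptake, by 0.62. The iron-responsive RNA-binding proteins Aco1 and Ireb2 were not called (-0.05 and 0.07), nor was Bach1 (0.08), the repressor of Hmox1, except in the fit of the 6 untreated libraries. 3 small calls were lost under many settings. Those lost when single libraries were left out were Hmox2 (-0.11; each library but HEPES 5), Cd163 (-0.22; MOPS 1 or 2, HEPES 4 or 5) and Ncoa4 (0.11; each library but HEPES 5). Hmox2 and Cd163 were also lost under RLE size factors, both offsets and DESeq2, Hmox2 and Ncoa4 without a filter on low counts, and Hmox2 with total counts. Over all settings their log2 changes ran from -0.13 to -0.04, -0.29 to -0.17 and 0.08 to 0.13.

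**Figure D5:**
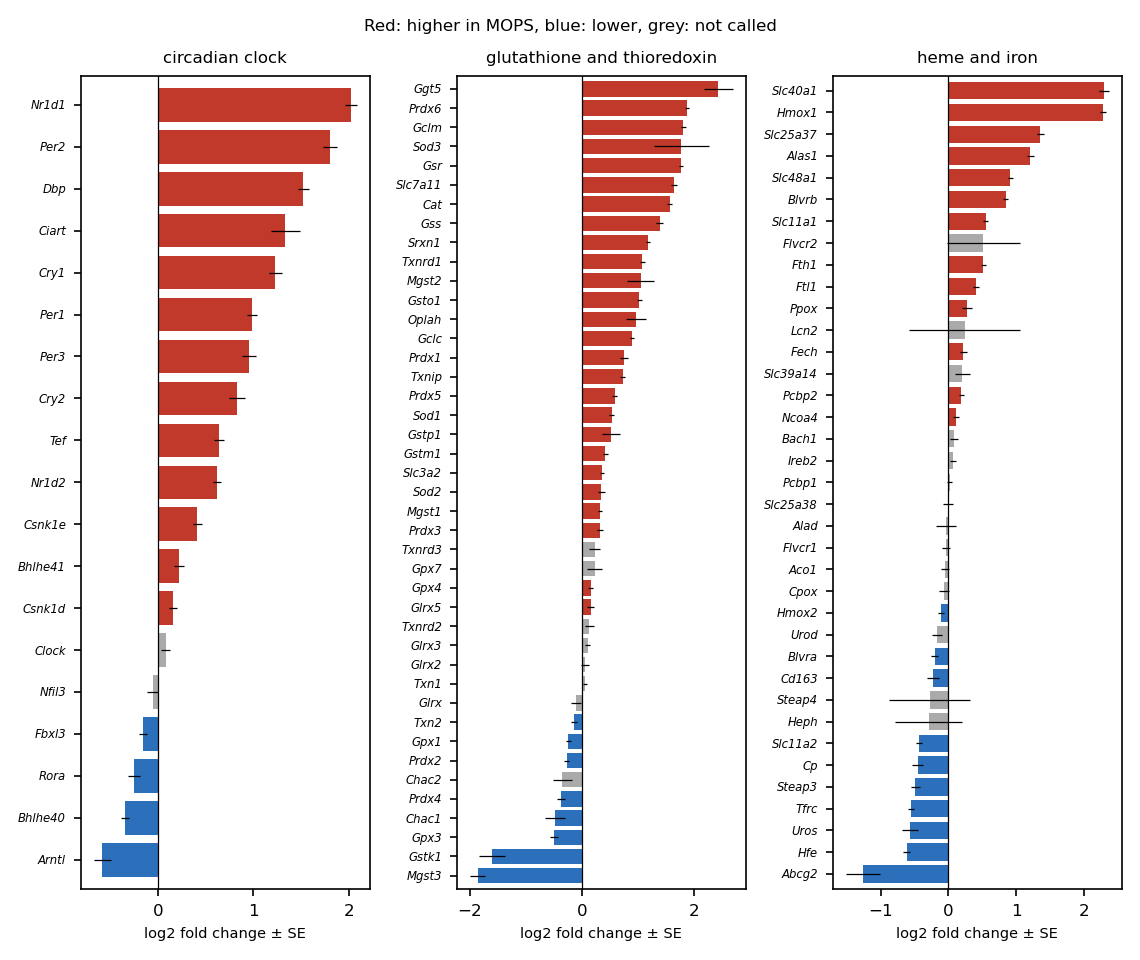
Log2 fold change of MOPS over HEPES with its SE for tested members of the clock, glutathione and thioredoxin, and heme and iron lists; red bars were called higher, blue lower and grey not called. Nr1d1 (2.02), Ggt5 (2.43) and Slc40a1 (2.30) top the 3 panels.

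Proton sensing and transport. Of 16 listed proton-sensing receptors and channels 13 were tested, with 5 higher and 5 lower. The proton-sensing G protein-coupled receptors split: Gpr132 was at 7.66, 8.78 and 7.61 CPM in MOPS and 5.20, 4.40 and 4.46 CPM in HEPES, while Gpr65 (TDAG8), the receptor coupled to cyclic AMP, fell by 0.92 ± 0.07 on the log2 scale. Among channels, Trpv4 rose by 0.49, Hvcn1, the voltage-gated proton channel, by 0.34 and Kcnk13 by 0.34. Tmem206, the acid-activated chloride channel, fell by 0.53 ± 0.068, and P2rx4 and Kcnk6 by 0.30 and 0.29. Tpcn1 fell by 0.19, a call lost without MOPS library 2 (log2 change -0.16).

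Acid-base transporters and carbonic anhydrases had 26 of 29 listed genes tested, 8 higher and 13 lower (median -0.24). Car6, a secreted carbonic anhydrase, was at 87.5, 86.2 and 86.6 CPM against 22.4, 29.6 and 23.3 CPM. Slc9a9, an endosomal sodium-proton exchanger, was at 9.32, 9.95 and 9.77 CPM against 41.1, 38.4 and 40.2 CPM. These were the largest changes of either sign in this list among genes past 10 CPM. At the plasma membrane, the bicarbonate importer Slc4a7 rose by 0.65 ± 0.055 and the lactate-proton carriers Slc16a1 and Slc16a3 by 0.60 and 0.34. The anion exchanger Slc4a2, which exports bicarbonate, fell by 0.47 ± 0.048, and Slc16a7 by 0.83 ± 0.063.

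The vacuolar proton pump and the lysosome fell in small, broad steps. Of 18 tested V-ATPase subunits, 1 rose and 15 fell (median -0.24), with Atp6v0c, Atp6v1d and Atp6v1g1 lower by 0.46, 0.44 and 0.41, and none reached 2-fold. Tested against a fold of at least 1.2, 0 subunits were higher and 5 lower. Of 55 lysosomal hydrolases and membrane proteins 7 rose and 39 fell (median -0.32), and against the 1.2-fold threshold 2 were higher and 24 lower. The summed level of that list was 46928 to 47579 CPM in MOPS and 59504 to 61063 CPM in HEPES. Grn was lower by 0.90 ± 0.035, Gusb (beta-glucuronidase) by 0.85, Man2b1 (alpha-mannosidase) by 0.83 and Ctss (cathepsin S) by 0.68. The largest rises of the list, Scarb2 and Lipa, went against it. Scarb2, the carrier of glucocerebrosidase to the lysosome, was at 415, 420 and 426 CPM against 201, 197 and 186 CPM. The E-box letters CACGTG, part of the element read by the lysosomal regulator TFEB, were in 15 of 44 lysosomal promoters (34.1%) and in 11.8% of promoters of tested genes. Tfeb itself fell by 0.18 ± 0.052. In the list of TFEB family and autophagy genes, 15 of 41 rose and 13 fell. Ulk1 and Sqstm1, the initiating kinase and the cargo receptor p62, rose by 0.82 and 0.79, and Rragd and Lamtor1, parts of the lysosomal nutrient sensor, fell by 1.44 ± 0.067 and 0.66 ± 0.042.

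Cyclic AMP and clock. Of 40 tested cyclic AMP genes, 15 rose and 8 fell. Ptger2, the Gs-coupled prostaglandin E2 receptor EP2, was at 33.0, 33.2 and 36.4 CPM in MOPS and 9.75, 10.5 and 8.73 CPM in HEPES, whereas its relative Ptger4 fell by 0.83 ± 0.063 on the log2 scale. Pde3b and Pde4d, which degrade cyclic AMP, rose by 1.23 and 0.81, and Prkar2b, a regulatory subunit of protein kinase A, by 1.17. A few genes induced through CREB are given as examples only, and Nr4a1 and Crem were named after their values were seen. Nr4a1 was not called (-0.01), Crem fell by 0.47 ± 0.099 and Per1 rose, as given with the clock.

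Among 22 circadian clock genes 19 were tested, and 13 rose and 4 fell (median 0.62). The clock runs on activators, BMAL1 and CLOCK, and on repressors that they induce. Nr1d1, the repressor REV-ERBalpha, was at 55.5, 55.5 and 54.6 CPM against 13.5, 12.9 and 14.5 CPM, and overlaps Thra. Per2 was at 28.3, 29.0 and 29.6 CPM against 9.01, 8.17 and 7.66 CPM, and Dbp, an output factor that overlaps Sphk2, at 84.0, 83.1 and 82.3 CPM against 30.9, 26.9 and 28.8 CPM. All 3 were at least 2-fold higher in every MOPS library than in any HEPES library. Cry1, Per1, Per3 and Cry2 rose by 1.23, 0.99, 0.95 and 0.83, Ciart by 1.33, and Nr1d2 and Tef by 0.62 and 0.64. Arntl, which encodes BMAL1, was at 12.1, 13 and 11.8 CPM against 16.8, 18.8 and 19.7 CPM, and Clock was not called (0.08). Bhlhe40, another repressor of the clock, fell by 0.34.

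Protein quality and translation. ER chaperone and unfolded protein response genes rose in small steps: 25 of 30 were higher and 1 lower (median 0.21), and 9 of them exceeded 1.2-fold in the test against that size. Hyou1, an ER chaperone, rose by 0.76 ± 0.038, Derl1 and Derl3, parts of the ER exit channel for misfolded proteins, by 0.57 and 1.38, and Hspa5 (BiP) by only 0.15 ± 0.037. Xbp1, whose spliced transcript encodes a factor of this response, was not called (0.07), but passed the threshold under 5 other settings, among them DESeq2. In the ATF4 list, 16 of 31 tested genes rose and 13 fell (median 0.15). Trib3 (0.97), Gdf15 (0.84), Cebpb (0.83), Sesn2 (0.56) and Slc6a9, a glycine transporter (1.98 ± 0.14), were higher, and Asns (-0.62), Nupr1 (-0.80), Aldh18a1 (-0.66) and Slc7a5 (-0.35) lower. Of 39 proteasome genes 24 rose and 4 fell (median 0.14), and the 4 were Psmd8 and 3 interferon-inducible genes, Psmb9, Psmb10 and Psme2. The call of Psmb10 (-0.17) was lost without HEPES library 5 (-0.11) and with the length offset. Psmd11 rose most, by 0.63 ± 0.043. Ribosome biogenesis had 19 of 44 higher and 2 lower (median 0.13), led by Polr1e (0.55), Gnl3 (0.51), Taf1d (0.49) and Bop1 (0.41). Cytosolic ribosomal protein genes had 10 higher and 18 lower of 81, counts that ranged from 7 to 19 and from 8 to 20 over the other settings and were 0 and 0 in the test against 1.2-fold. Many of these genes have processed copies. Heat shock genes had 14 of 28 higher and 3 lower (median 0.09), with Hspb1 and Bag3 up by 2.03 ± 0.19 and 0.59 ± 0.045 and the inducible Hspa1a lower by 0.56 ± 0.16.

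Mitochondria and central carbon. All 9 of 13 mitochondrially encoded genes that were called fell (median -0.44), among them mt-Nd1 (-0.50 ± 0.042) and mt-Nd2 (-0.44 ± 0.048). Nuclear copies of this genome make those values uncertain. Nuclear-encoded respiratory chain genes had 8 of 83 higher and 38 lower (median -0.12), only 1 and 8 against the 1.2-fold threshold. Mitochondrial ribosomal genes had 12 of 77 higher and 23 lower, a lower share near the background. In the TCA list, 11 of 37 rose and 7 fell (median 0.03), where Pcx, pyruvate carboxylase, rose by 1.11 ± 0.13 and Idh1 by 0.75 ± 0.041. Glycolysis had 10 of 27 higher and 9 lower. Eno1, Pgk1 and Aldoa rose by 0.71, 0.69 and 0.44, while the brain-type aldolase Aldoc fell by 1.51, Ldhb by 0.75, Pfkp by 0.55 and the lysosomal hexose transporter Slc2a6 by 0.84. In the hypoxia list 13 of 24 rose and 3 fell (median 0.29): Hif1a rose by 0.78 ± 0.049 and Egln3 by 1.27, and Epas1, which encodes HIF-2alpha, fell by 0.85 ± 0.047.

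Amino acid and nucleotide genes moved by member. Arginine and polyamine genes had 10 of 20 higher and 7 lower. Smox (spermine oxidase) and Arg2, the mitochondrial arginase, each rose by 1.39 on the log2 scale, while the arginine importer Slc7a1 fell by 0.47. Serine, one-carbon and nucleotide synthesis had 11 of 32 higher and 9 lower. Mthfd1l, the mitochondrial formate producer, rose by 0.74 ± 0.071, and its cytosolic counterpart Mthfd1 fell by 0.50 ± 0.072. Cell cycle genes were low in both media, with 7 of 40 higher and 13 lower (median -0.12). The G1 kinase and cyclin genes Cdk6, Ccnd1 and Cdk4 were lower by 1.34, 1.31 and 0.48. Metallothionein and zinc genes had 6 of 21 higher and 4 lower, and metallothionein Mt1, which binds zinc, fell by 1.2 ± 0.066.

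Surface receptors and complement. Complement genes had 23 of 27 members tested, 2 higher and 15 lower (median -0.58). C1qb was at 225, 207 and 197 CPM in MOPS and 803, 820 and 780 CPM in HEPES, and the partner chains C1qa and C1qc of the same complex fell by 2.05 and 2.28 on the log2 scale. The anaphylatoxin receptors C3ar1 and C5ar1 fell by 0.92 and 0.51, and the C3b receptor Vsig4 (CRIg) by 0.99. The 3 C1q chains, which start the classical pathway, were thus all lower.

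Scavenger and apoptotic-cell receptors had 13 of 33 tested members higher and 20 lower (median -0.27). Gas6, the bridge between phosphatidylserine and the TAM receptors, was at 22.7, 22.1 and 20.8 CPM against 106, 103 and 103 CPM. Pros1, the other bridge, fell by 0.84 ± 0.045, and Timd4, a phosphatidylserine receptor, by 1.60 ± 0.11, while the TAM receptor Axl rose by 1.01 ± 0.044. The receptor Mertk was higher by 0.14, a call lost without MOPS library 3 (0.12) or HEPES library 6 (0.10). Marco rose by 1.06 ± 0.14, Msr1 fell by 0.47 and Stab1 by 0.78, and Itgb3, the vitronectin receptor chain, by 1.88 ± 0.12. In the Fc and C-type lectin list, 28 of 31 were tested, with 9 higher and 14 lower (median -0.21). Clec4n, which encodes dectin-2, a receptor for fungal mannan, was at 784, 788 and 771 CPM against 200, 195 and 188 CPM. Clec4d, its partner, rose by 0.66 and Clec10a (MGL1) by 1.52. Clec12a, an inhibitory receptor for uric acid crystals, fell by 2.15 ± 0.075, Clec5a by 1.98 ± 0.074 and Siglec1 (CD169) by 1.32. Clec1b was at 23 and 6.86 mean CPM, and Clec9a, which overlaps it on the same strand, rose with it.

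In the list of macrophage core genes 9 of 29 rose and 17 fell (median -0.18). Csf1r, the growth factor receptor of macrophages, was higher by 0.11 ± 0.038, a call lost without MOPS library 2 or 3 (0.11 in both) or HEPES library 6 (0.08). Its ligand gene Csf1 was at 84.7, 94.9 and 95.4 CPM against 202, 224 and 232 CPM, a fall of 1.26 ± 0.055. Aif1, which encodes IBA1, fell by 2.58 ± 0.17. Of 29 tested genes of large peritoneal macrophage identity 10 rose and 13 fell (median -0.11). Prg4, a lubricin, and Ltbp1, a TGF-beta binding protein, rose by 1.05 and 0.72, and Serpinb2, Vsig4 and Fabp5 fell by 2.06, 0.99 and 0.96.

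Extracellular ATP and ADP are sensed by purine receptors and turned into adenosine by ectoenzymes. Of 25 tested genes of this list 8 rose and 13 fell (median -0.26). The ADP receptors P2ry12 and P2ry13 fell by 2.74 ± 0.19 and 2.54 ± 0.23, both from low levels inside the gene Med12l, and P2rx1 by 1.87 ± 0.16. Entpd1 (CD39), which hydrolyses extracellular ATP, fell by 0.99 ± 0.055. Nt5e (CD73), which makes adenosine from AMP, was at 93.7, 82.4 and 71.9 CPM against 28.1, 24.9 and 22.5 CPM, and the adenosine receptor Adora2a rose by 0.58. The nucleoside importer Slc28a2 fell by 1.66 ± 0.079. Among chemokine and leukocyte receptors, 11 of 34 rose and 14 fell, with Ccr7, the lymph node homing receptor, at 7.11, 9.82 and 8.39 CPM against 1.08, 1.26 and 1.33 CPM and Hcar2, the niacin receptor, lower by 1.67 ± 0.075.

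Eicosanoid synthesis had 20 of 23 listed genes tested, with 15 higher and 3 lower (median 0.58). Pla2g7, the phospholipase that degrades platelet-activating factor, was at 906, 868 and 878 CPM against 239, 236 and 212 CPM. Pla2g4a, the phospholipase that frees arachidonic acid, rose by 1.0 ± 0.052, Alox5 and Ltc4s of the leukotriene branch by 0.97 and 1.48, and Ptgs1 and Ptges of the prostaglandin E2 branch by 0.56 and 1.78. Hpgds, the prostaglandin D2 synthase, was at 26.0, 24.4 and 24.2 CPM against 103, 90.7 and 96.6 CPM.

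Inflammatory genes. Of 39 tested cytokine and TNF superfamily genes 5 rose and 23 fell (median -0.51). Tnfsf13b (BAFF), Tnfsf13 (APRIL) and Tnfsf12 (TWEAK) fell by 1.84, 1.27 and 0.76, and Nlrp3 and Pycard, parts of the inflammasome, by 0.64 and 0.56. Il16 rose by 1.10 ± 0.076 and Il18bp, the interleukin-18 trap, by 0.90, as interleukin-18 itself (Il18) fell by 0.79. Chemokine genes had 8 of 22 higher and 10 lower (median -0.21). Ccl3 was at 26.2, 30.7 and 29.8 CPM against 75.4, 82.3 and 82.7 CPM, and Ccl4 and Ccl7 fell by 1.61 and 4.07. Despite its large fall, Ccl7 did not meet the conditions for leading genes, non-overlapping media and at least 10 CPM in the higher group. Cxcl14 and Pf4 rose by 1.21 ± 0.058 and 1.14 ± 0.095, and Ppbp and Cxcl3 by 2.78 and 2.33. Toll-like receptor genes had 11 of 30 in each direction: Tlr1, Tlr4 and Tlr2 of the cell surface fell by 1.06, 0.85 and 0.74, and Tlr8 and Irak2 rose by 0.60 and 0.71. Of 29 NF-kappaB subunits and feedback genes 12 rose and 6 fell (median 0.08), where Ptgs2 (cyclooxygenase 2) rose by 1.81 ± 0.29 and Ikbkg (NEMO), which overlaps G6pdx, by 0.95 ± 0.046. In antigen presentation 3 of 26 rose and 14 fell (median -0.21), with Cd80 and Nlrc5 lower by 0.73 and 0.75. Alternative activation genes did not move together, with 8 of 22 higher and 11 lower (median -0.22). Clec10a and Ear2 rose with Arg1, by 1.52 and 2.49, Ear2 having near-copies, and Mrc1 and Retnla fell by 0.77 and 0.51.

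Interferon-stimulated genes fell. Of 36 tested, 0 rose and 27 fell, with a median of -0.70. At an unadjusted p under 0.05 the edgeR test gave 0 rises and 28 falls, and DESeq2 gave 0 and 26, while 19 fell beyond 1.2-fold in the test against that size. The summed level was 401 to 448 CPM in MOPS and 586 to 624 CPM in HEPES. Gbp3 and Gbp7, interferon-induced GTPases, were at 4.86, 5.52 and 5.13 CPM against 15, 16.1 and 12.6 CPM, and at 7.98, 9.32 and 7.78 CPM against 20.3, 19.1 and 17.4 CPM. Gbp2 was at 8.49, 10.6 and 9.36 CPM against 26.8, 31.4 and 25.5 CPM. The 3 guanylate-binding proteins did not overlap between media, as was so for 3546 of all 3687 lower calls. Among the signalling factors, Irf9 and Stat2 fell by 0.36 and 0.20, and Irf7 (0.24) was not called. The letters GAAANNGAA, the core of the interferon-stimulated response element, were found on either strand in 19 of 28 promoters of this list (67.9%), in 8.73% of promoters of tested genes, and in 65 of 468 (13.9%) promoters of all genes that fell by at least 2-fold. The windows of the called genes of this list that fell most and hold these letters are shown, a choice made after the values were seen. They are Gbp2 at chr3:142620513-142620662 and Ifit3 at chr19:34583374-34583528, both plus strand, with 1 and 3 matches in capitals.

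Gbp2: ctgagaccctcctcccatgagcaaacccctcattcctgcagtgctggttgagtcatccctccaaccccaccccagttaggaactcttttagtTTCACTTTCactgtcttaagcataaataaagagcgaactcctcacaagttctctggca
Ifit3: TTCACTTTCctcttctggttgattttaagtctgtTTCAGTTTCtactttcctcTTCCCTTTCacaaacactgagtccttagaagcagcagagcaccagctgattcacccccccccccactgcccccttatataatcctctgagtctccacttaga

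Ifit3 was close to detection, at 0.237, 0.0333 and 0.204 CPM against 0.607, 0.524 and 0.184 CPM, and the media overlapped although it was called (log2 change -1.52 ± 0.59, adjusted p = 0.0336). The call was lost without MOPS library 2 (-0.99) or HEPES library 4 (-1.22) or 5 (-1.38), and adjusted p ran up to 0.19 over the settings that tested it. Ifit3 had too few counts in the untreated libraries to pass the filter on low counts by these alone. It is counted among the 27 that fell, but its own values are not taken as a difference at rest.

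Transcription factors. Maf, a bZIP factor of resident macrophages, was at 42.6, 40.6 and 42.4 CPM in MOPS and 185, 168 and 173 CPM in HEPES (log2 change -2.07 ± 0.048). Klf11 and Klf10, which are induced by TGF-beta, rose by 1.71 ± 0.08 and 1.18 ± 0.053, and Klf2, Klf4 and Klf6 fell by 0.89, 0.68 and 0.58. In the Kruppel-like family as a whole, 5 of 13 rose and 7 fell (median -0.31). Early genes of the AP-1, EGR, NR4A and IER families had 10 of 27 higher and 5 lower (median 0.09). Fos was at 48.1, 45.0 and 46.7 CPM against 15.2, 17.6 and 15.9 CPM, and its partner Jun fell by 0.79 ± 0.046. Dual-specificity phosphatase and SOCS genes had 9 of 24 higher and 8 lower. Dusp5 and Dusp6, phosphatases induced by ERK signalling, rose by 1.71 and 0.89, and Dusp3 fell by 0.68. Among p53 targets and BCL2 genes, 11 of 29 rose and 8 fell (median 0.06). Sesn1, a stress-induced inhibitor of mTORC1, was at 66.3, 65.3 and 68.2 CPM against 156, 154 and 161 CPM, whereas its relative Sesn2 rose. Phlda3 rose by 1.07 ± 0.082, and Mcl1, a survival factor, fell by 0.47 ± 0.035.

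Matrix and growth factor genes were also divided. Of 36 matrix and protease genes 10 rose and 17 fell (median -0.20). Mmp19 and Mmp9 rose by 1.66 and 1.12, though Mmp19 overlaps Tmem198b, and Timp2, an inhibitor of matrix proteases, fell by 0.87. Plau, the urokinase that activates plasminogen, and its receptor Plaur fell by 1.12 ± 0.079 and 0.56 ± 0.052. Of 31 tested growth factor genes 10 rose and 10 fell, with Igf1 lower by 0.60 ± 0.044 and Gdf15 higher by 0.84 ± 0.053. Integrin and adhesion genes had 10 of 28 in each direction, and Cd81 and Cd44 rose by 0.52 and 0.47. Among 210 tested solute carriers 56 rose and 76 fell (median -0.09). Beside those above, Slc8a1, the sodium-calcium exchanger, was at 119, 126 and 118 CPM against 33.4, 31.3 and 32.3 CPM.

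Long noncoding RNAs. The largest rises among noncoding genes past 10 CPM were Gm39822 (1.96 ± 0.12 on the log2 scale), 1700071M16Rik (1.85, antisense to Pla2g7, whose reads it may hold), Gm26917 (1.53), Pvt1 (1.07) and Mir22hg (1.03). Mir22hg, the host transcript of the microRNA miR-22, was at 99.1, 98.6 and 104 CPM in MOPS and 51.0, 45.7 and 50.8 CPM in HEPES. Neat1, the scaffold of nuclear paraspeckles, was at 642, 622 and 642 CPM against 1522, 1265 and 1508 CPM. Gm20559 fell by 2.65 ± 0.063 but overlaps Gm43197 on the same strand, and A130077B15Rik, AU022793 and 4930430E12Rik fell by 2.20, 2.14 and 1.57. The media did not overlap in any of these 10 genes, as was so for 3396 of all 3518 higher and 3546 of all 3687 lower calls.

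Other cell types. Markers of B cells, which share the peritoneal cavity with macrophages, were detected in all libraries. All 14 were tested, 7 rose and 2 fell (median 0.64), and their summed level was 259 to 264 CPM in MOPS and 133 to 216 CPM in HEPES, with the highest HEPES value in library 6. Without that library 10 rose and 2 fell (median 0.93), and without HEPES library 4 the median was 0.36. Ighm and Igkc, immunoglobulin chains, rose by 1.11 ± 0.16 and 1.18 ± 0.15, and Ms4a1 (CD20) was at 14.9 and 14.8 CPM and not called. Cd22 and Bank1, also of B cells, fell by 0.83 and 0.64. Ms4a1 was called without HEPES library 6 (0.24). The B cell chemokine Cxcl13, described above, was lower in MOPS while most called markers were higher, and the part of B cells in other values, such as Ccr7 and Blk, was not tested. Platelet and red cell markers had 4 of 10 tested, and all 4 rose: their sum was 230 to 260 CPM against 104 to 113 CPM and was almost all Pf4, which macrophages also express. Ppbp was at 7.55 and 1.09 CPM. Hba-a1, Hba-a2, Alas2 and Gp9 had too few counts to be tested, and Hbb-bs had 46 counts in MOPS and 1 in HEPES. Of T and NK cell markers 2 of 14 were tested, and Cd3d, Cd3e, Trac and Nkg7 were not among them. Their sum was 0.692 to 1.42 CPM and 1.25 to 1.71 CPM. Granulocyte and mast cell markers had 9 of 18 tested, 4 higher and 3 lower, with a sum of 330 to 343 CPM and 304 to 327 CPM, and Ly6g, Elane and Mpo untested. Dendritic and small peritoneal macrophage markers had 12 of 14 tested, 5 higher and 2 lower, with a sum of 380 to 440 CPM and 422 to 491 CPM. Flt3 (2.87 ± 0.48), Clec9a, which overlaps Clec1b on the same strand, and Ccr7 led the rises. Cd209a was among the 2 that fell (-0.61). Of 15 mesothelial, stromal and endothelial markers 7 were tested and 0 were called by edgeR, 0 at an unadjusted p under 0.05 and 0 by DESeq2. The defining mesothelial genes Msln and Upk3b had too few counts to be tested. That sum was 9.69 to 13.6 CPM and 8.80 to 10.5 CPM.

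With LPS. The same media were also compared after LPS, in other libraries, so the resting effect could be set beside a second one. The difference between both medium effects was tested directly and was called in 39.4% of genes. All 28 leading genes described had the same sign with LPS and were called there, and in 21 the size differed. They were chosen by their change without LPS, which favours larger effects without it. The rise of Sema3c was 3.30 without LPS and 0.70 with it. Slc40a1 went the other way, with 2.30 without and 3.89 with LPS. For Pdk4 (8.04 and 7.72), Arg1 (3.75 and 3.81) and Wnk2 (3.40 and 3.31) the difference was not called. Of genes with large CPM differences, Cd36 (1.53 and 1.47) and Ucp2 (1.87 and 1.97) had differences that were not called, and Plin2 had 2.06 without LPS against 1.61 with it (difference 0.45 ± 0.059). Maf fell by 2.07 without LPS and by 0.69 with it, and Pparg by 1.65 and 0.72. List medians without and with LPS were 1.30 and 1.18 for PPAR targets, -1.77 and -1.33 for sterol genes, 0.89 and 1.04 for NRF2 targets, 0.62 and 0.91 for the clock, -0.58 and -0.42 for complement and -0.70 and -0.94 for interferon-stimulated genes. Those of the lysosomal list were -0.32 and 0.01 and of the unfolded protein response list 0.21 and -0.11. Differences between these medians were not tested.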

How the data were processed

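RNA was extracted with Trizol and libraries were made with the NEBNext Ultra RNA kit, per the labels' protocols. The submitters' processing notes name CASAVA 1.8, HISAT2 2.0.5, featureCounts 1.5.0-p3 and mm10. Which annotation and which strand option were used, and how the authors tested, is not given in the sources used here. What the authors deposited were whole-number read counts per gene, their own FPKM values, and tables of log2 fold changes, p-values and group means. The deposited counts were tested, the FPKM values were not tested, and the fold changes and p-values were used only to count calls of the authors' deposited table.

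Counts of all 12 libraries were fitted in R 4.3.3 with edgeR 4.0.16: filterByExpr, TMM normalization, a model of the 4 groups (8 residual degrees of freedom) and robust quasi-likelihood tests of MOPS over HEPES without LPS, with Benjamini-Hochberg adjustment over all 14506 genes and a threshold of 0.05. The step was tested on simulated data. The LPS libraries entered the filter on low counts, the normalization, the shared spread and the comparisons with LPS. Replicate pairs differed by more than sampling noise (chi-square per degree of freedom 2.66 to 4.00), so no library was left out or merged. Reads are not marked by molecular identifiers, and the labels give no batch or date. Overlapping genes and near-copies are named as such, since the strand setting is not given.

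The comparison, its lists and tests were chosen with earlier results of these data known. Named genes followed a rule: the 15 largest log2 changes per direction among called, non-overlapping protein-coding genes of at least 10 CPM, the 10 largest CPM differences per direction, per list up to 4 members with the lowest p, the 5 largest changes per direction of noncoding genes, and the members of the sterol, heme, clock, proton-sensing and glutathione lists with 13 regulators and macrophage genes. Other members of those lists are drawn in the plots. Some genes of the rule and the lists are not reported here. A further 97 genes were named after their values were seen: Ucp3, Fabp4, Lpl, Acadvl, Pccb, Acat1, Acsl3, Pex11a, G0s2, Mgll, Soat1, Gpat4, Nceh1, Abca1, Abcg1, Fads2, Elovl6, Scd1, Fads1, Elovl1, Srebf1, Nr1h3, Acly, Acaca, Cbr1, Me1, G6pdx, Gsta3, Slc4a7, Slc16a1, Slc16a3, Slc4a2, Man2b1, Tfeb, Lamtor1, Ptger4, Pde4d, Nr4a1, Crem, Derl3, Hspa5, Xbp1, Cebpb, Sesn2, Asns, Aldh18a1, Slc7a5, Psmd8, Psmb9, Psmb10, Psme2, Polr1e, Hspa1a, Aldoc, Ldhb, Pfkp, Egln3, C1qa, C1qc, C5ar1, Pros1, Timd4, Mertk, Marco, Msr1, Stab1, Clec12a, Siglec1, Ltbp1, Serpinb2, P2ry13, Nt5e, Adora2a, Alox5, Ltc4s, Ptgs1, Ptges, Tnfsf13b, Tnfsf13, Pycard, Il18bp, Il18, Ccl7, Cxcl3, Tlr2, Retnla, Gbp2, Irf9, Stat2, Irf7, Ifit3, Klf4, Plau, Plaur, Ighm, Ms4a1, Ptgs2. Promoters came from RefSeq (GRCm38.p6), and motif letters were searched on both strands. Alternatives were other size factors, filters, offsets for gene length and GC content, DESeq2 1.42.0, a test against a 1.2-fold change, and leaving out single libraries. The correction for GC content was chosen after seeing the data.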

Additional observations from a re-analysis of the deposited data

Results flagged for a closer look

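In 21 of the 28 leading genes described the medium effect differed between untreated and LPS-treated cells, by a test of the difference itself (edgeR, adjusted over all genes tested). Over all genes tested the difference was called in 39.4%. The leading genes were chosen for the size of their change without LPS, and this choice favours larger effects without LPS. How many genes lie in each direction is therefore not a result about the medium. The values below are that difference, the log2 change without LPS minus the log2 change with LPS. All 21 kept their sign in both conditions. Among these rising genes it was largest in Sema3c (2.60, adjusted p = 7.43e-13), Clcf1 (1.65), Hilpda (1.33), Angptl4 (1.15) and Procr (1.04), with smaller differences in Asb4 (0.67) and Rims3 (0.48). The rise was larger with LPS in Slc40a1 (-1.59, adjusted p = 2.04e-08), Matn2 (-0.92), Lgals4 (-0.91) and Akr1b8 (-0.49).

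Among falling genes, the fall was larger without LPS in each of the 10 described that differed, the direction that their choice favours. In sterol and fatty acid synthesis these were Scd2 (-1.55, adjusted p = 0.000123), Cyp51 (-0.58), Sqle (-0.57), Idi1 (-0.56), Stard4 (-0.51) and Hsd17b7 (-0.37). The others were Cxcl13 (-1.01), Cd300lf (-0.98), Aldh1l1 (-0.76) and Pira2 (-0.59). The 7 genes in which the difference did not pass were Pdk4, Arg1, Wnk2, Ccl2, Cd28, Adgre4 and Fdft1.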

How the results depend on the processing

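No paired analysis was run, because the labels state no pairing of replicates between the media. Of the 7205 calls, those still tested were kept in 87.2 to 99.7% under other size factors, filters, offsets, DESeq2 or leaving out single libraries, and 0 were called in the opposite direction. Calls that were higher made up 48.8% of all calls, and 42.9 to 54.1% over the alternatives. Tested against a 1.2-fold change, 1399 genes were higher, 1865 lower and 2651 differed with LPS (5719 without that threshold). That test also ended the calls of 59 of the 497 named genes, among them Gata6, Ebp, Keap1, Ctsd and Gpx1. With genes of at least 1 CPM only, which tests fewer genes, 312 were at least 2-fold higher and 444 lower.

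Leaving out 1 library at a time gave 3151 to 3254 genes higher and 3294 to 3466 lower, with 472 to 512 and 680 to 714 of at least 2-fold. No named gene that was called reversed its sign under the alternatives run. The 3 libraries per medium and the depth limit calls among rare genes.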

Other observations

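A few gene groups stood outside the comparisons above. Of 20 cytosolic tRNA synthetase genes 6 rose and 2 fell. Of 304 tested Zfp zinc finger genes 51 rose and 62 fell (median -0.07), both below the shares of all genes, with Zfp532 and Zfp52 higher by 1.24 ± 0.10 and 0.80 ± 0.058 on the log2 scale. Of 17 tested histone genes 2 rose and 7 fell (median -0.24). H1f0, a linker histone of non-dividing cells, was at 76.1, 70.7 and 68.7 CPM in MOPS and 119, 124 and 118 CPM in HEPES.

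Called genes with 0 counts in 1 medium were 4 in MOPS and 3 in HEPES. Tslp, an epithelial-type cytokine, had 0 counts in MOPS and 5 in HEPES, at least 1.56-fold lower against 3 counts over the group. Kcna7, a potassium channel, had 11 counts in MOPS and 0 in HEPES, at least 3.92-fold higher. Both genes had too few counts in the untreated libraries to pass the filter on low counts by these alone. They were tested only because of their counts with LPS, so their values without LPS are not taken as a difference at rest.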
